A study of Mus musculus with 12 samples.

Results

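The 10 circadian clock genes described here are Clock, Arntl, Npas2, Per1, Per2, Per3, Cry1, Cry2, Dbp and Tef, out of 23226 genes that the authors' deposited table lists under 1 name. They were taken by name as core clock and output genes, and the set was chosen by known role with 1 measured pattern in view, the log2 fold change of Clock, which was large in the KP22 line and small in 16T and KP1. All 10 were found. The values that led to this choice are given as a description, without a test. RNA was sequenced in bulk from 3 mouse small cell lung cancer lines that are all Trp53-/-;Rb1-/- and grow as floating spheres. The groups were 16T cells with an shRNA against Nfib, 16T cells with a control shRNA (shLuc), KP1 cells with the same pair of shRNAs, KP22 cells with a vector carrying Nfib cDNA, and KP22 cells with an empty vector. 16T and KP1 are labelled Nfib high and KP22 is labelled Nfib low. There were 12 samples, 2 in each of 6 groups, and nothing says that they came from separate cultures, so the errors measure only the spread between these samples. Each knockdown rests on 1 shRNA and each direction of change in Nfib on its own lines. The labels used here give no hour of harvest and no synchronisation of the cultures.

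The circadian clock is a feedback loop of transcription. CLOCK pairs with ARNTL (also called BMAL1), or NPAS2 takes the place of CLOCK, and the pair switches on genes that carry an E-box in their regulatory DNA, among them the Per and Cry genes, Nr1d1 and Dbp. PER and CRY proteins then block the pair, while NR1D1 and NR1D2 repress Arntl and ROR proteins activate it. DBP and TEF are PAR bZIP transcription factors that carry the rhythm to further genes through the D-box. Nfib, the gene that was manipulated, encodes a DNA-binding protein of the nuclear factor I group (NFI). The comparisons ask which transcripts changed when it was lowered or raised.

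The deposited values are log2 fold changes with standard errors (SE, given after ±) from a fit by the authors, and 1 mean normalized count per gene over all libraries. Values per sample are not used here, so neither the depth of each library nor the number of samples that show a direction is known. A gene is called higher or lower where the authors' adjusted p was below 0.05. In the authors' deposited table the log2 fold change of Nfib itself was -1.08 ± 0.035 with the shRNA in 16T, -1.32 ± 0.035 with it in KP1, and 1.80 ± 0.036 with cDNA in KP22. The headings of that table give no direction, which was read from these values of Nfib. All 6 neuroendocrine markers given here (Insm1, Chga, Syp, Ncam1, Uchl1 and Calca) had mean normalized counts between 5290 and 25975 in the authors' deposited table. The summed mean was 2528 for 5 fibroblast markers, of which Pdgfra gave 2220, 172 for 5 leukocyte markers, 203 for 4 endothelial markers and 342 for 4 airway markers, and Cd3e, Emcn and Scgb1a1 were listed at 0.

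The promoters of the genes on which the results turn are shown first. Clock had the largest change of the 10, and Per3, Dbp and Tef, with Nr1d1 (a repressor gene) and Arntl2 (the paralog of Arntl) from the wider pathway, were higher in both knockdown lines and lower in KP22. The sequences are the 250 bases before the RefSeq transcript start on GRCm38.p6 (the mm10 build), written 5′ to 3′ on the gene's strand, with matches to the motifs named after them in capitals.
Clock, chr5:76304793-76305042, minus strand: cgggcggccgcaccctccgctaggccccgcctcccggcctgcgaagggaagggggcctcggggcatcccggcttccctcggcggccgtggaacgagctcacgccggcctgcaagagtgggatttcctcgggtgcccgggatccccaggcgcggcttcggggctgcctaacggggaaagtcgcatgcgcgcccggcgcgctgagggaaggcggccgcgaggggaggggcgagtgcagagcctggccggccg
Per3, chr4:151044666-151044915, minus strand: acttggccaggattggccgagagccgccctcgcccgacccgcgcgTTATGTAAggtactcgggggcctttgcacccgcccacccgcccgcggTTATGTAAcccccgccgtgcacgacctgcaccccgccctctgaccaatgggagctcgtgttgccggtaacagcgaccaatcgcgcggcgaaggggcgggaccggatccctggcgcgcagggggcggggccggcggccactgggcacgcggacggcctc
Dbp, chr7:45704997-45705246, plus strand: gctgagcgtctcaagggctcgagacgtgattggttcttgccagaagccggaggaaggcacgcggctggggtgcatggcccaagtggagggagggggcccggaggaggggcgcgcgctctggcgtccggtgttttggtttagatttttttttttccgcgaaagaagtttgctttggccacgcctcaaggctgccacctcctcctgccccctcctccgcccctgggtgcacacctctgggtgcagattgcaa
Tef, chr15:81802423-81802672, plus strand: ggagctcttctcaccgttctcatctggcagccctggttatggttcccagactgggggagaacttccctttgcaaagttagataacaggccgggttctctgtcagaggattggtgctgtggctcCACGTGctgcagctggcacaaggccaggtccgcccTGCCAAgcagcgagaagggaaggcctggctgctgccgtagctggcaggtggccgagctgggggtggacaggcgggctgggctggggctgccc
Nr1d1, chr11:98775378-98775627, minus strand: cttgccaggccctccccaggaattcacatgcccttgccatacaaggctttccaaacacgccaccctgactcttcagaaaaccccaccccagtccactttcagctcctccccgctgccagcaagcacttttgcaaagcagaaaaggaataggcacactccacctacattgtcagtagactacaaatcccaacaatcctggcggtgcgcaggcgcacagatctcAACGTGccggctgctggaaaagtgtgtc
Arntl2, chr6:146805280-146805529, plus strand: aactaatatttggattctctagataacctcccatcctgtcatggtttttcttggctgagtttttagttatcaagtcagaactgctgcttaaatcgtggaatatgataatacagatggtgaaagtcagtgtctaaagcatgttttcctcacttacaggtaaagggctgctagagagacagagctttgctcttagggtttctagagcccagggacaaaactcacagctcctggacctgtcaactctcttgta

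The motifs searched on both strands were the E-box CACGTG, its variant CACGTT, the D-box TTATGTAA, the core TAGGTCA of a ROR element, the single-arm NFI motif TTGGCA and the full palindromic NFI motif, which joins both arms over a spacer. Of the 10 members, 9 had a promoter in the RefSeq set. Per2 had none there and was not searched. Clock has 3 starts in that set, and Arntl, Per1 and Tef have 2 each. Only the start nearest the 5′ end of the gene's exon intervals was searched for each gene. Per3 held 2 copies of the D-box, which start 205 and 158 bases before the transcript start, and 0.819% of all 32851 promoter windows of this length held the motif. An E-box was found in Per1, Cry1 and Tef (6.02% of all windows), and its variant in Cry1 and Cry2 (3.85%). The E-box of Tef starts 127 bases before the transcript start, and a single-arm NFI motif follows at 92 bases. The single-arm NFI motif was also in Npas2, and in 12.3% of all windows. The full motif was in none of the 9 members searched and in 0.0365% of windows. The windows of Clock, Arntl, Dbp and Arntl2 held no match to these 6 motifs, and that of Nr1d1 held the E-box variant 28 bases before the start. These matches describe letters in a short window.

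Among the activators, Clock was lower in KP22 with Nfib cDNA and differed little in the knockdown lines. Clock lies on chromosome 5 (76209868 to 76304792, mm10, minus strand) and was counted over 24 exon intervals at a mean normalized count of 7670. In the authors' deposited table its log2 fold change in KP22 was -2.33 ± 0.051, which corresponds to 19.8% of the empty-vector level (95% interval 18.5% to 21.2% from the SE). The values in the knockdown lines in the authors' deposited table were -0.24 ± 0.051 in 16T, or 84.6% of the control level, and -0.03 ± 0.05 in KP1. In cultures measured in bulk, fewer cells that express a gene and less RNA per cell cannot be told apart.

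Arntl, whose product pairs with CLOCK, was higher in every line, with nearly the same value each time. In the authors' deposited table it had log2 fold changes of 0.63 ± 0.085 (16T), 0.58 ± 0.085 (KP1) and 0.59 ± 0.087 (KP22), or 1.55-fold, 1.5-fold and 1.51-fold. Arntl was thus higher both where Nfib was lowered and where it was raised. Npas2, which encodes the paralog of CLOCK, was near the lower end of what was measured, with a mean normalized count of 17.6. Npas2 had 0.53 ± 0.52 (16T), 0.84 ± 0.51 (KP1) and -0.38 ± 0.52 (KP22) in the authors' deposited table, and none of these was called. The 95% interval of Npas2 in KP22 runs from 37.9% to 155% of the empty-vector level, so these data do not show whether it changed where Clock was lower.

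**Figure D1:**
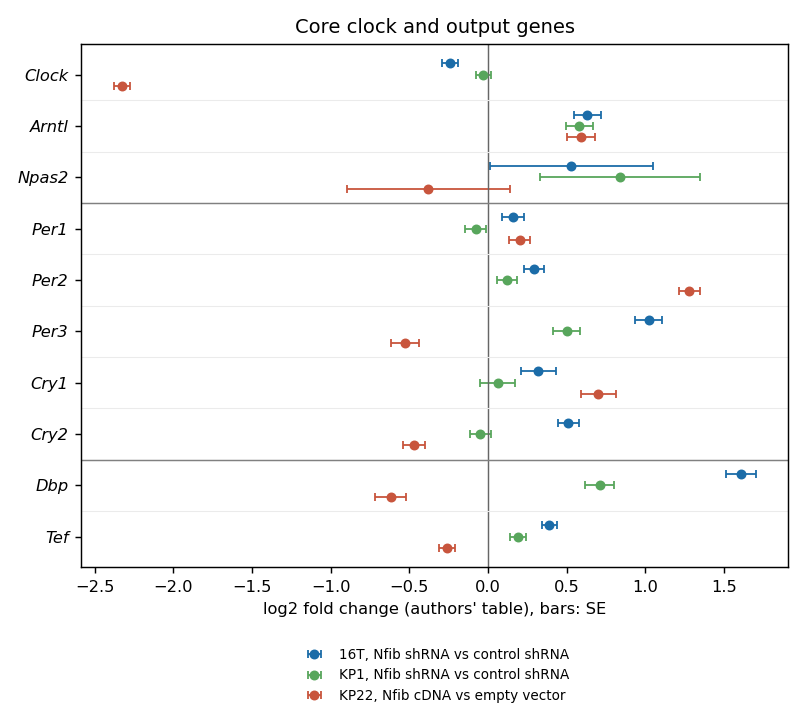
Log2 fold changes of the 10 clock genes from the authors' deposited table (x axis, log2 scale) in 16T and KP1 with Nfib shRNA against control shRNA and in KP22 with Nfib cDNA against empty vector; points are the deposited values and bars their SE. Clock stands at -2.33 in KP22, Arntl lies between 0.58 and 0.63 in all 3 lines, and Per3, Dbp and Tef lie right of 0 in both knockdown lines and left of 0 in KP22.

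Genes next to Clock on chromosome 5 were also lower in KP22. Of the 6 other genes within 500 kb of Clock with a mean of at least 100, 5 were called lower and 0 higher in KP22, with a median of -1.10, where 18.8% of all 17544 genes tested were called lower. In the authors' deposited table Tmem165, a Golgi membrane protein gene whose exons end 1 kb from those of Clock, had -1.26 ± 0.074 in KP22 (adjusted p = 3.9e-63 in the authors' fit). Srd5a3, a reductase gene of dolichol synthesis 54 kb away on the same side, had -0.94 ± 0.13 in the authors' deposited table (adjusted p = 4.39e-12). In the knockdown lines Tmem165 had 0.07 ± 0.076 (16T) and -0.10 ± 0.076 (KP1), neither called, from the authors' deposited table. Srd5a3 had 0.00 ± 0.13 in 16T and was called lower in KP1 as well, at -0.30 ± 0.12 (adjusted p = 0.0442) in the authors' deposited table. On the other side Exoc1, an exocyst subunit gene 225 kb away, fell by 0.31 ± 0.058 in KP22 and by 0.22 ± 0.058 in 16T, and Cep135, a centriole gene 287 kb away, had -0.13 ± 0.08 with no call, in the authors' deposited table. Kdr, the VEGF receptor gene, lies 231 kb away on the side of Tmem165 and Srd5a3. It fell in all 3 lines, with -1.48 ± 0.18 (16T), -1.62 ± 0.21 (KP1) and -1.76 ± 0.16 (KP22) from the authors' deposited table. The sixth was Mir1191, at -1.43 ± 0.18 in KP22 in the authors' deposited table, but the authors' intervals give it 48 bp on chromosome 5 while GENCODE M21 places that name on chromosome 7. Its intervals begin at 76206229, within the span of Tmem165 (76183880 to 76209244), so Mir1191 may not be a separate neighbour. Whether the 2 share reads was not tested.

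A pair of genes with lower means lie between these positions and were named after their values were seen. Nmu, a neuropeptide gene 29 kb from Clock with a mean of 69.4, had -1.85 ± 0.42 in KP22 in the authors' deposited table. Gm7271, 179 kb away with a mean of 80.3, had -6.48 ± 0.45, the lowest value in the region, in the authors' deposited table. Beyond Cep135 the values in KP22 had both signs. Within 1 Mb they lay between -0.26 ± 0.055 for Ppat, called lower, and 0.62 ± 0.44 for Hopx, not called, and C530008M17Rik at 536 kb, called lower, had -0.15 ± 0.045, in the authors' deposited table. In 16T and KP1, 2 of the 6 neighbours were called lower in each and 0 higher, against 25.3% and 19.6% of all genes called lower. Around 8 of the other members the medians of the neighbours in KP22 lay between -0.25 and 0.25, and for Cry2, described below, the median was -0.54. The 10 neighbours of Per2, the highest member in KP22, had a median of 0.25 there. Of these 10, 7 were called higher and 2 lower in KP22, against 19.5% and 18.8% of all genes. Whether the values of these members and those of their neighbours share a source was not tested.

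**Figure D2:**
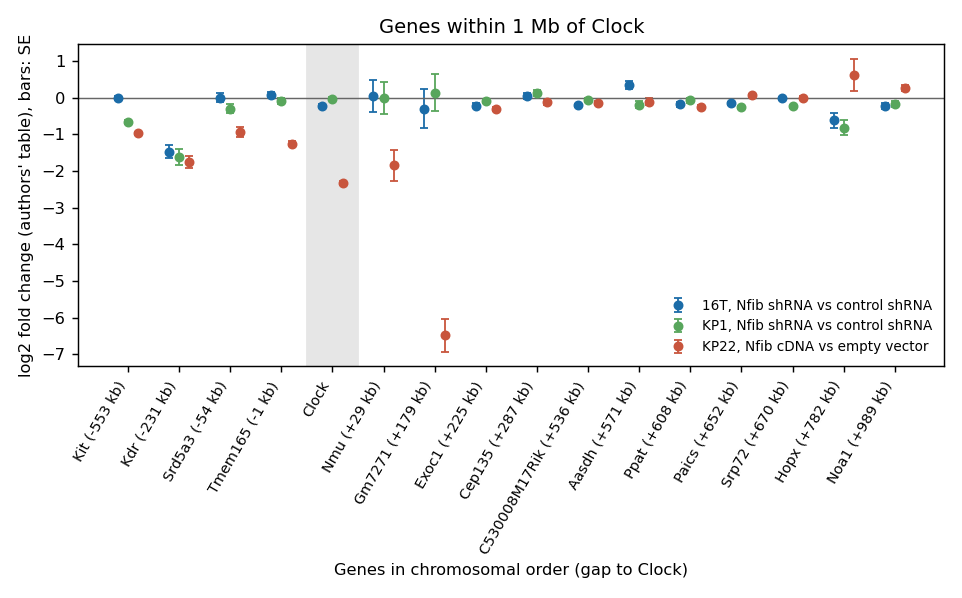
Deposited log2 fold changes, from the authors' deposited table (y axis, log2 scale, bars: SE) of genes with a mean of at least 10 within 1 Mb of Clock, in chromosomal order with the gap to Clock in kb, in the 3 lines; Mir1191 is left out. In KP22 the genes from Kit to Gm7271 lie at or below -0.94, and those from Exoc1 onwards lie between -0.31 and 0.62.

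The Per genes, which encode repressors of the CLOCK pair, split in KP22. Per2 (chromosome 1, 91415982 to 91459328) was the highest of the 10 there, at 1.28 ± 0.064 in the authors' deposited table, which is 2.43-fold the empty-vector level (95% interval 2.23 to 2.65). Per3 (chromosome 4, 151003655 to 151044665) was lower in KP22, at -0.53 ± 0.089 or 69.3% of the empty-vector level, in the authors' deposited table. Per1 (chromosome 11, 69098956 to 69109957) had 0.20 ± 0.069, the smallest call of the 9 in KP22, from the authors' deposited table. When effects were recentred on the median gene it was 0.16 and no longer called. In 16T all 3 Per genes were higher in the authors' deposited table, with 1.02 ± 0.087 for Per3, 0.29 ± 0.064 for Per2 and 0.16 ± 0.069 for Per1. In KP1 only Per3 of the 3 was called, at 0.50 ± 0.085, while Per2 had 0.12 ± 0.063 and Per1 had -0.08 ± 0.069 in the authors' deposited table. Another 231 bp of Per3 exons, held under a joined name, gave 1.27 ± 0.31 (16T), 0.45 ± 0.30 (KP1) and -0.35 ± 0.31 (KP22) in the authors' deposited table, of which the value in 16T was called.

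The cryptochromes, partners of the PER proteins, also went in opposite directions in KP22. Cry1 (chromosome 10, 85131700 to 85185054) had 0.70 ± 0.11, or 1.63-fold, and Cry2 (chromosome 2, 92403647 to 92434069) had -0.47 ± 0.069, or 72.1% of the empty-vector level, in the authors' deposited table. In 16T both were higher in the authors' deposited table, Cry1 at 0.32 ± 0.11 and Cry2 at 0.51 ± 0.067. In KP1 neither was called in the authors' deposited table, with 0.06 ± 0.11 for Cry1 and -0.05 ± 0.067 for Cry2. The 11 genes with a mean of at least 100 within 500 kb of Cry2 had a median of -0.54 in KP22, and 7 were called lower and 0 higher, against 18.8% and 19.5% of all genes. They included the adjacent scaffold gene Mapk8ip1 (-0.94 ± 0.058) and Phf21a (-0.35 ± 0.054), a chromatin reader gene 39 kb from Cry2, with values from the authors' deposited table. Phf21a was also near Cry2 in the knockdown lines, at 0.52 ± 0.052 (16T) and -0.04 ± 0.052 (KP1) in the authors' deposited table. Mapk8ip1 had 0.14 ± 0.056 (16T) and 0.22 ± 0.056 (KP1) there, and the medians of the 11 genes were 0.12 (16T) and -0.01 (KP1). The part that the surroundings of Cry2 have in its value was not tested. A gene on the other strand, D930015M05Rik, overlaps Cry2, and 4.79% of the mean counts of Cry2 and their shared interval fall in that interval, which cannot be assigned to either.

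The output genes Dbp and Tef were higher in both knockdown lines and lower in KP22. Dbp (chromosome 7) had the largest values of any member in 16T and among the called ones in KP1. Intervals under its name alone span 45705247 to 45708471. In the authors' deposited table Dbp had 1.61 ± 0.095 in 16T, or 3.06-fold the control level (95% interval 2.69 to 3.48). Its values from the authors' deposited table were 0.71 ± 0.092 for KP1, or 1.64-fold, and -0.62 ± 0.098 for KP22, or 65% of the empty-vector level. Tef (chromosome 15, 81802673 to 81826863) moved less, with 0.39 ± 0.048 (16T), 0.19 ± 0.048 (KP1) and -0.26 ± 0.049 (KP22) from the authors' deposited table. The 3′ end of Dbp overlaps Sphk2 on the opposite strand, and the intervals carry no strand. Hence 2349 bp (45709463 to 45711811) were counted under both names. That joined interval had 0.52 ± 0.077 (16T), 0.33 ± 0.077 (KP1) and -0.06 ± 0.08 (KP22) in the authors' deposited table. It holds 57.2% of the mean counts of Dbp and itself together. The exons of Sphk2 alone, a sphingosine kinase gene, had -0.03 ± 0.11 (16T), -0.12 ± 0.11 (KP1) and 0.31 ± 0.11 (KP22) in the authors' deposited table.

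Counted over the 10 members, 8 were called higher and 1 lower in 16T, against 20.0% and 25.3% (45.3% in all) of the 14504 genes tested. In KP1, 4 were called higher and 0 lower, against 17.6% and 19.6% (37.2% in all). In KP22, 4 were called higher and 5 lower, against 19.5% and 18.8% (38.4% in all). Because these contrasts were known when the set was put forward, nothing is read from the counts. Their medians were 0.45 in 16T, 0.16 in KP1 and -0.32 in KP22, where the medians of all genes tested were -0.05, -0.02 and 0.04. The 4 genes called in KP1, Arntl, Per3, Dbp and Tef, were all called in 16T, in the same direction. Per3, Dbp and Tef were called higher in both knockdown lines and lower in KP22, a combination found in 4.76% of the 14504 genes tested in all 3 comparisons, which share no samples. No member had the opposite combination (5.33% of genes), and Arntl was called higher in all 3 (1.25%). Clock, Per1, Per2, Cry1 and Cry2 were called in KP22 and in 16T but not in KP1.

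To set knockdown and overexpression side by side, the KP22 value was turned in sign, towards lower Nfib, and the mean of the 16T and KP1 values was subtracted. The difference is 0 where both manipulations gave equal and opposite values. For Nfib itself it was -0.60 ± 0.044 (-1.80 in KP22 turned, -1.20 in the knockdown lines). Nfib was thus changed by unequal amounts, and the difference is not adjusted for that. It was 2.47 ± 0.062 for Clock (2.33 in KP22 turned, -0.14 in the knockdown lines) and -1.49 ± 0.078 for Per2 (-1.28 and 0.21). It was -1.20 ± 0.11 for Arntl (-0.59 and 0.61), -0.54 ± 0.12 for Dbp (0.62 and 1.16), -0.23 ± 0.11 for Per3 (0.53 and 0.76) and -0.03 ± 0.06 for Tef (0.26 and 0.29). For Cry1 it was -0.89 ± 0.13 (-0.70 and 0.19), for Cry2 0.24 ± 0.084 (0.47 and 0.23), for Per1 -0.24 ± 0.085 (-0.20 and 0.04) and for Npas2 -0.30 ± 0.63 (0.38 and 0.68). For Tef the 2 values lay within 1 SE of each other. No test is given for the members here, as these differences belong to the choice of the set.

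**Figure D3:**
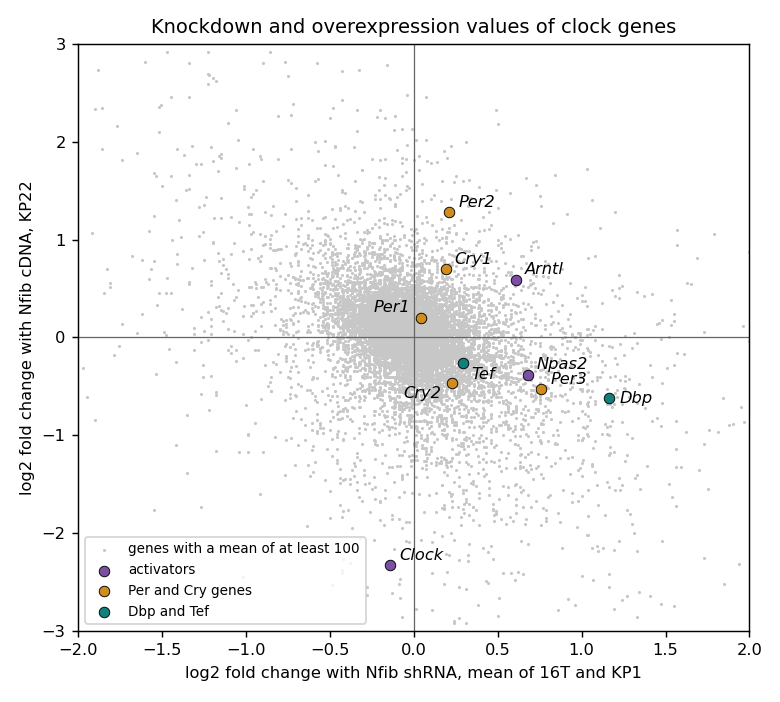
Log2 fold changes with Nfib shRNA (x axis, mean of 16T and KP1) and with Nfib cDNA in KP22 (y axis), both on the log2 scale, for the 10 clock genes (large points, by role) and for the 12287 genes whose mean reached 100 (small grey points, of which 130 lie outside the axes). Dbp, Per3 and Tef lie at lower right, Arntl, Per2 and Cry1 at upper right, and Clock near the vertical axis at -2.33.

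Levels between genes were compared as the mean normalized count per kb of exon interval, 1 value over all libraries, lines and treatments, from the authors' deposited table. Tef had 1335 per kb and Dbp 1181, Cry2 had 967, Clock 773, Cry1 754, Per2 735, Arntl 690, Per1 606 and Per3 320. Npas2 had 4.21 per kb, the lowest level. The table gives no spread for these levels, and they pool groups in which the genes differ, so no order is drawn from them beyond the low level of Npas2. With their joined intervals added, Dbp had 900 per kb and Cry2 953.

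The wider pathway was described by 32 other genes listed by role, which were all measured (Noct under its older name Ccrn4l). In 16T, 14 rose and 4 fell, against 20.0% and 25.3% of all genes tested, with a median of 0.06. In KP1, 9 rose and 9 fell (17.6% and 19.6% of all genes), with a median of 0.02. In KP22, 12 rose and 8 fell (19.5% and 18.8%), with a median of 0.04. The called shares were 56.2% (16T), 56.2% (KP1) and 62.5% (KP22), beside 45.3%, 37.2% and 38.4% of all genes. Without regard to sign, the median size of change was 0.14, 0.14 and 0.17, below the 0.24, 0.19 and 0.25 of all genes tested. The higher called shares thus do not stand for larger changes. With effects recentred on the median gene the split was 16 and 1 in 16T and 9 and 6 in KP1. The shares of all genes after recentring are not given here, so nothing is read from that split.

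Nr1d1, which encodes a repressor of Arntl, rose in 16T (1.03 ± 0.069, adjusted p = 1.36e-47) and KP1 (0.52 ± 0.072, 6.66e-12) but fell in KP22 (-0.77 ± 0.077, 2.76e-22), all from the authors' deposited table. Its relative Nr1d2 rose in 16T (0.34 ± 0.05) and KP1 (0.55 ± 0.051), and had -0.01 ± 0.05 in KP22, in the authors' deposited table. Rora, an activator of Arntl, rose in all 3 lines, with 0.87 ± 0.07 (16T), 0.57 ± 0.071 (KP1) and 0.24 ± 0.074 (KP22) in the authors' deposited table. Rorb had the largest rise of the 32 in KP22, 1.80 ± 0.16 (adjusted p = 1.04e-27), in the authors' deposited table. In KP1 it rose as well (0.51 ± 0.16, adjusted p = 0.00607), and in 16T it had -0.34 ± 0.15 with no call, in the authors' deposited table. Of these 4 receptor genes, 16T had 3 rises and 0 falls, KP1 had 4 and 0, and KP22 had 2 and 1, against shares of all genes of 20.0% and 25.3% (16T), 17.6% and 19.6% (KP1), and 19.5% and 18.8% (KP22).

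The bHLH repressor genes Bhlhe40 and Bhlhe41, whose products compete at E-boxes, had the largest rises of the pathway in 16T, at 1.61 ± 0.093 and 1.35 ± 0.12 in the authors' deposited table. Bhlhe41 also rose in KP1 (1.05 ± 0.12), where Bhlhe40 fell (-0.41 ± 0.091), and neither was called in KP22, in the authors' deposited table. Arntl2, the paralog of Arntl, rose in 16T (1.13 ± 0.2) and KP1 (0.86 ± 0.21) and fell in KP22 (-1.05 ± 0.22) in the authors' deposited table. Ciart, a repressor gene whose promoter window held 3 E-boxes, rose in 16T (0.79 ± 0.15) and KP22 (0.51 ± 0.14), from the authors' deposited table. Hlf, the third PAR bZIP gene beside Dbp and Tef, rose in 16T (0.75 ± 0.071) and KP22 (0.28 ± 0.076) and had 0.12 ± 0.071 in KP1, in the authors' deposited table, so it did not share the direction of Dbp and Tef in KP22. Nr1d1 and Arntl2 were the genes among the 32 that were called higher in both knockdown lines and lower in KP22 (2 of 32, against 4.76% of all genes).

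Of 10 kinase, ubiquitin ligase and protease genes, 3 rose and 0 fell in 16T, 1 rose and 4 fell in KP1, and 2 rose and 3 fell in KP22. The called shares of these genes, 30% (16T), 50% (KP1) and 50% (KP22), stand beside 45.3%, 37.2% and 38.4% of all genes. Fbxl21, an F-box gene whose product acts on CRY proteins, had a mean of 24.4 and rose in 16T (1.33 ± 0.48, adjusted p = 0.0152), in the authors' deposited table. Csnk2a1, a catalytic subunit gene of casein kinase 2, fell in KP1 (-0.22 ± 0.043) and KP22 (-0.67 ± 0.044) and had 0.09 ± 0.043 in 16T, from the authors' deposited table. Csnk1e, a PER kinase gene, rose slightly in all 3 lines, with 0.11 ± 0.041 (16T), 0.15 ± 0.041 (KP1) and 0.16 ± 0.041 (KP22) in the authors' deposited table. Among the 9 PER complex and coregulator genes, 16T had 1 rise and 4 falls, KP1 had 1 and 2, and KP22 had 4 and 3, with medians of -0.01, 0.02 and 0.11. Their called shares were 55.6%, 33.3% and 77.8%, beside the same 45.3%, 37.2% and 38.4% of all genes. Of the clock-controlled outputs, Wee1, a cell cycle kinase gene, rose in KP22 (0.80 ± 0.065), and Nampt, an enzyme of NAD synthesis, rose in 16T (0.40 ± 0.063) and KP1 (0.33 ± 0.063), in the authors' deposited table.

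**Figure D4:**
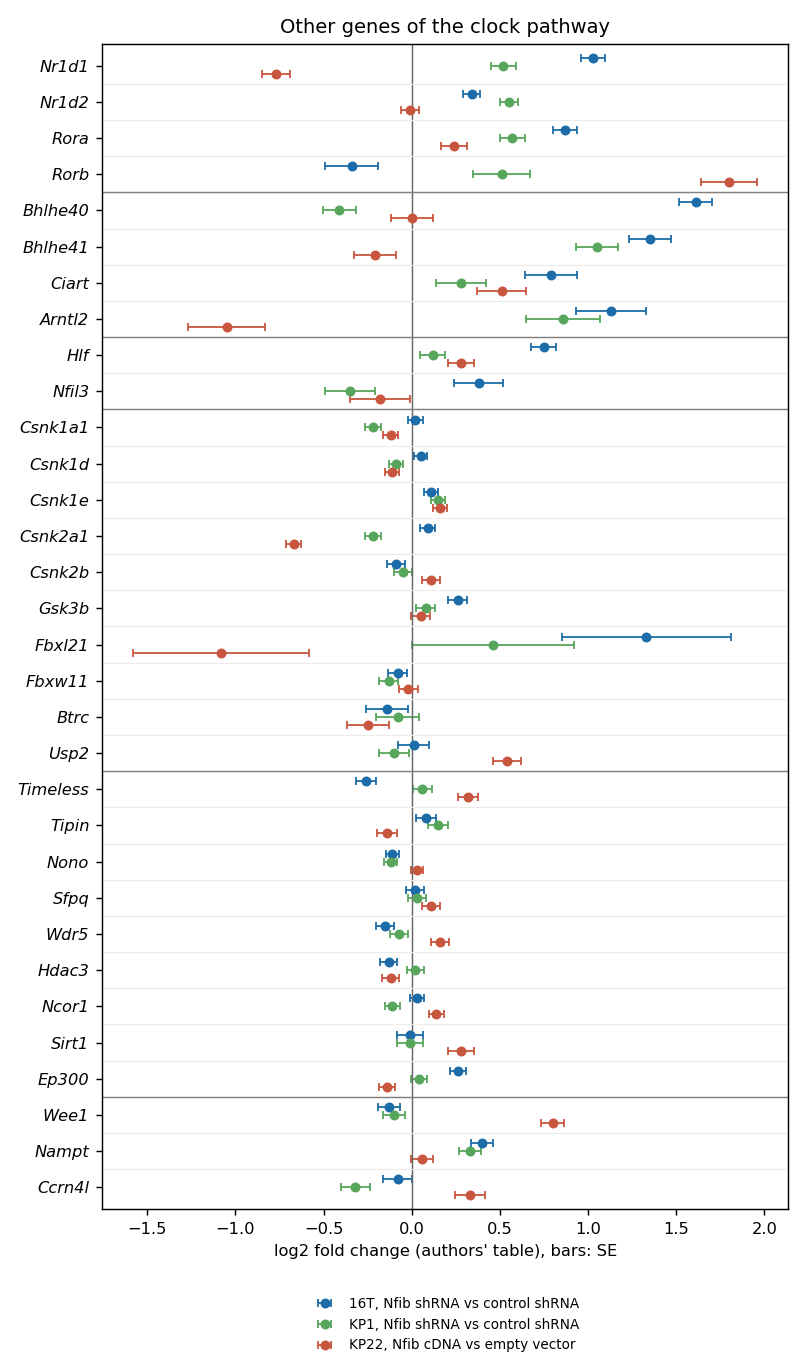
Deposited log2 fold changes, from the authors' deposited table (x axis, log2 scale) of 32 other clock pathway genes in the 3 comparisons, with SE bars; horizontal lines separate nuclear receptors, repressors with Arntl2, PAR bZIP relatives, PER and CRY modifiers, PER complex and coregulators, and outputs. The nuclear receptor genes lie between -0.77 and 1.80, the repressors with Arntl2 between -1.05 and 1.61, the PER and CRY modifiers between -1.08 and 1.33 (both Fbxl21), and the PER complex and coregulator genes between -0.26 and 0.32.

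The difference between KP22, turned towards lower Nfib, and the knockdown lines was tested for the 32 genes in 1 fit over 15008 genes with a mean of at least 10. It was called for 19 of the 32 (5 above 0 and 14 below), against 36.7% of all genes. With 16T alone in place of the mean the split was 2 above and 15 below 0, and with p from the t distribution 2 and 11. The shares of all genes by direction are not given here, so nothing is read from these splits. The share of 36.7% was not matched for mean count. Nr1d1 had 0.00 ± 0.092 (0.77 in KP22 turned and 0.77 in the knockdown lines), with a 95% interval from -0.18 to 0.18. Arntl2 had 0.05 ± 0.27 (1.05 and 1.0), with an interval from -0.47 to 0.58. Neither was called, and the interval of Arntl2 is the wider of the pair.

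The 5 genes most like Clock were taken as those with the smallest Euclidean distance in the 3 log2 fold changes, among 12286 genes with a mean of at least 100. They were Zfp618 (distance 0.248), Iglon5 (0.268), Lrrc4b (0.278), Enah (0.343) and Jph3 (0.357). Their values in KP22 in the authors' deposited table were -2.16 ± 0.28, -2.47 ± 0.24, -2.61 ± 0.15, -2.66 ± 0.39 and -2.31 ± 0.24 in that order. In the knockdown lines Zfp618, with a mean of 142, had -0.34 ± 0.51 (16T) and 0.11 ± 0.49 (KP1) in the authors' deposited table. These SEs are larger than its distance, and the distance takes no account of SEs, so no order is drawn among the 5. None lies on chromosome 5, and the measure rests on 3 comparisons only.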

How the data were processed

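Bulk RNA-seq of 12 samples in 6 groups was used as deposited. The labels' protocols name a Qiagen kit for RNA and an Illumina TruSeq kit for libraries. Per the submitters' processing notes the build was mm10, and the tools named are DESeq, DESeq2, TopHat and bedtools. Their versions were not given in the sources used here, and cqn normalization is named only in the title of the table per the labels. Per the file headers, the authors gave 1 signal per gene, the mean normalized count of the fit, log2 fold changes with SEs, a Wald score, p-values and adjusted p-values, also against a change of 0.5. Library totals are unknown, so precision is that of the deposited SEs. A second deposited list gave merged RefSeq exon intervals with the number of exons merged (other), from which positions and lengths were taken.

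The 23226 features under 1 name were used (of 28112). Fold changes and 95% intervals were computed from the log2 values and SEs. The difference between KP22 and the knockdown lines treated the SEs of the lines as independent and took p from the normal distribution. These p-values were adjusted by Benjamini-Hochberg over 15008 genes. The calculation was also run on simulated data with independent normal errors of the deposited SEs, which cannot check those assumptions. Strands came from GENCODE M21 and promoters from RefSeq (9 of 10 members and 25 of 32 pathway genes matched). Python 3.11.15, numpy 2.4.6, pandas 2.3.3 and scipy 1.17.1 were used.

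The members, lists and tests were chosen with earlier results of these data known. Some genes of the lists are not reported here and are in none of the counts of listed genes. Genes named are Nfib, all members, up to 5 called pathway genes with the largest change in each line and for the difference, the 5 genes nearest to Clock in the 3 log2 fold changes, and genes with a mean of at least 100 within 500 kb of Clock. Outside that rule, Hlf, Csnk1e, Nampt, Mapk8ip1, Phf21a, Nmu, Gm7271, C530008M17Rik, Ppat, Hopx and Kit were named after their values were seen, as were Sphk2 and D930015M05Rik for their overlap with members. The design had also foreseen values per sample; the table holds results only, so the authors' adjusted p-values were used. Alternatives were other filters, the test against 0.5, a t distribution, recentring and joined features.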

Additional observations from a re-analysis of the deposited data

Results flagged for a closer look

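These genes of the wider pathway had differences between KP22, turned towards lower Nfib, and the mean of the knockdown lines that passed the test of the difference itself, and are the 5 with the largest size among the 32 reported. The first 4 are below 0 and the last is above 0. Rorb had -1.89 ± 0.19 (adjusted p = 9.15e-21 from the summed errors of the authors' fit), from -1.80 in KP22 turned and 0.08 in the knockdown lines, a mean of -0.34 in 16T and 0.51 in KP1. Ciart had -1.04 ± 0.17 (-0.51 and 0.53; adjusted p = 2.09e-08). Bhlhe41 had -1.0 ± 0.15 (0.21 and 1.20; adjusted p = 3.6e-10). Rora had -0.96 ± 0.09 (-0.24 and 0.72; adjusted p = 3.43e-25). Csnk2a1 had 0.74 ± 0.053 (0.67 and -0.07; adjusted p = 6.76e-42). It lies on chromosome 2 (152226840 to 152281851), and the genes around it were not examined.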

How the results depend on the processing

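No paired analysis was possible because the deposited table holds results of comparisons and no values per sample, and for the same reason no replicate could be left out. Against a change of 0.5, 2 of the 10 members were called in 16T, 0 in KP1 and 2 in KP22, and 6, 1 and 4 of the 32 pathway genes, where the main counts were 9, 4 and 9 and 18, 18 and 20; that test asks for a larger change. With p from the t distribution (6 degrees of freedom) the pathway counts were 11 in KP1 and 12 in KP22, as the wider reference distribution calls fewer genes. The shares of all genes called under the alternatives are not given here, so nothing beyond their dependence on the setting is read from these counts. Every other total of calls was within 1.5 times its main total under the alternatives run, but counts in 1 direction moved further. Falls among the pathway genes numbered 1 in 16T, 4 in KP1 and 3 in KP22 with the t distribution, and 1 in 16T after recentring, where the main counts were 4, 9 and 8. Differences above 0 numbered 2 with 16T alone and 2 with the t distribution, where the main count was 5. Of 30 member values recentred on the median gene, 29 kept their direction and side of the threshold, and Per1 in KP22 (0.16) was no longer called. The number of called differences, 19, was between 13 and 19 over the 5 alternatives.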
